A study of Arabidopsis thaliana with 87 samples.

Results

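Fully green leaves and green parts of leaves were compared in Arabidopsis thaliana plants transformed with RUBY. This reporter encodes the enzymes for betalain, a red pigment, and green tissue is tissue in which the pigment was not visible. Libraries were taken by their titles: 9 were titled fully green and 13 green parts, which made 22 of the 87 small RNA libraries of the study. All 22 came from 4-week-old leaves of Col-0, the wild-type background, and all carried 35S::RUBY, in which the 35S promoter of cauliflower mosaic virus drives the transgene. Plants stood on soil under an 18 h day at 22 °C. The libraries fell into 8 transformation events: MK016, MK040, MK042, MK043, MK044 and MK045 gave libraries of both kinds, and MK025 and MK041 gave green parts only. A fully green library and a green parts library of the same event and label number were taken as a pair, which gave 9 pairs, 3 of them from MK016 and 2 from MK040. The design text calls the libraries of an event biological replicates. The labels do not say whether a number stands for 1 plant. The tests below therefore refer to the spread between these libraries only, and several libraries of 1 event share an insertion.

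Plants silence transgenes by turning their transcripts into double-stranded RNA, which Dicer-like enzymes cut into small RNAs of fixed length from both strands. DCL4 makes 21 nt and DCL2 makes 22 nt small RNAs, which guide the cleavage and translational block of matching transcripts, and DCL3 makes 24 nt small RNAs, which guide DNA methylation. RDR6, an RNA-dependent RNA polymerase, makes the second strand of many silenced transgene transcripts. These roles are background: each deposited table gave, for the transgene as a whole, the reads of 11 lengths from 18 to 28 nt on a plus and a minus strand, and no enzyme was measured. The tables do not state which strand is that of the RUBY transcript.

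Depth ranged from 3.50 to 31.4 M mapped reads over the 22 libraries (1 M being 1000000), with a median of 14.4 M, and 160673 to 1245102 of these reads matched the transgene. Every length on each strand held at least 16 reads in every library. Fully green MK045 number 3 (7.14 M) and green parts MK041 number 1 (3.50 M) had fewer than 8 M mapped reads. Green parts MK041 number 1 also stood apart in make-up, with the lowest 24 nt share (1.27%), the highest 21 nt share (82.5%) and the lowest minus strand share (52.0%) of the 13 green parts libraries. Levels are in RPM, the reads per 1000000 mapped reads that the authors deposited, and were tested as log2(RPM + 1). Less transgene small RNA in a bulk leaf sample can come from fewer cells that make it or from less of it per cell, and these cannot be told apart here.

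Fully green leaves held more transgene small RNA than the green parts paired with them, by 1.49-fold on average, but the groups as a whole overlapped widely. The total ranged from 20371 to 97070 RPM with a median of 65028 RPM in fully green leaves, and from 5975 to 80855 RPM with a median of 40111 RPM in green parts. Of the 9 fully green libraries, 1 lay above all green parts (MK040 number 1) and 0 lay below them all. Fully green leaves averaged 55928 ± 25675 RPM (SD, n = 9), and green parts averaged 36562 ± 22390 RPM (SD, n = 13). Transgene reads made up 5.59% ± 2.57 of mapped reads in fully green leaves (SD, n = 9) and 3.66% ± 2.24 in green parts (SD, n = 13). Between the unpaired groups the fold of fully green over green parts was 1.76 (95% interval 0.921 to 3.37), which lay within the spread (two-sided exact permutation test, adjusted p = 0.115 over 14 levels).

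Within the 9 pairs the total was 1.49 times as high in fully green leaves (95% interval 1.10 to 2.03), with 8 of 9 pairs higher (two-sided sign-flip permutation test, adjusted p = 0.0219). The pairs differed in size of effect. MK044 number 3 had 20371 RPM in the fully green leaf and 7122 RPM in the green parts, a fold of 2.86 that was the highest of the 9 pairs. MK043 number 1 had 35818 RPM in the fully green leaf and 14953 RPM in the green parts. In MK040 number 2, by contrast, the values were close, 65028 RPM in the fully green leaf and 60645 RPM in the green parts. MK042 number 3 was the exception in direction, with 33228 RPM in the fully green leaf and 41294 RPM in the green parts. Expressed as a share, green parts held 35.0% to 124% of the total of their fully green partner, with a median of 69.5%. Leaving out each pair in turn kept the total past the threshold in 9 of 9 cases, with a log2 difference of 0.45 to 0.68.

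**Figure D1:**
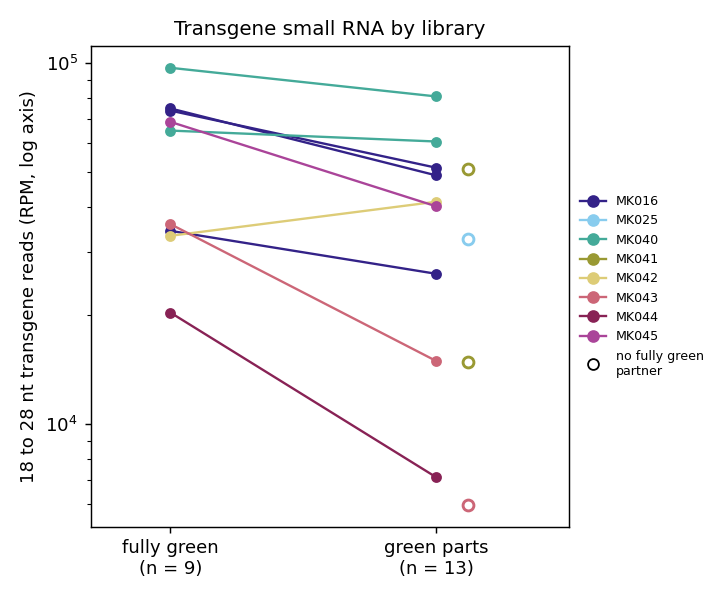
Total 18 to 28 nt transgene reads (RPM, log axis) of each fully green library (left) and green parts library (right), coloured by event. Lines join the 9 pairs and open circles are the 4 green parts libraries with no fully green partner. Of the 9 lines, 8 descend to the right and that of MK042 ascends.

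The 4 green parts libraries with no fully green partner (MK025 number 1, MK041 numbers 1 and 2, MK043 number 2) enter only the unpaired test. They ranged from 5975 to 50788 RPM with a median of 23655 RPM, against a median of 41294 RPM in the 9 green parts libraries that had a partner. The lowest green parts total, 5975 RPM in MK043 number 2, was among them. Their lower levels stand beside the larger unpaired fold (1.76 against 1.49), which carried the wider interval.

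A pair tended to be high or low in both its leaves. Across the 9 pairs the log2 totals correlated with a Pearson r of 0.88 (exact permutation p = 0.000989, adjusted over 5 relations p = 0.00247) and a Spearman rho of 0.75 (exact permutation p = 0.0255, adjusted p = 0.0389). Without the 2 pairs farthest from the median, r was 0.91. Pairs of the same event are not independent. Over the 6 event means r was 0.86 (exact permutation p = 0.0278, adjusted p = 0.0463), and 0.47 without the 2 farthest events. Leaving those out narrows the range and leaves few events, so whether the relation holds without them cannot be told. The minus strand share followed its pair in the same way, with r = 0.94 (exact permutation p = 0.000554, adjusted p = 0.00247) and rho = 0.92 (exact permutation p = 0.00131, adjusted p = 0.00656) over the 9 pairs. Without the 2 farthest pairs its r was 0.85. Over 6 event means it was 0.93 (exact permutation p = 0.00833, adjusted p = 0.0382), and 0.46 without the 2 farthest events. The length shares of pair members were compared in the same way. The 21 nt share had r = 0.76 and rho = 0.82 (exact permutation, adjusted p = 0.00484 and 0.0269), with r = 0.71 without the 2 farthest pairs. The 24 nt share had r = 0.74 and rho = 0.73 (exact permutation, adjusted p = 0.0411 and 0.0389), with r = 0.63 without the 2 farthest. The 22 nt share had r = 0.67 and rho = 0.62 and passed on neither measure (exact permutation, adjusted p = 0.0510 and 0.0857), with r = 0.39 without the 2 farthest. Over 6 event means r was 0.76 for 21 nt (exact permutation, adjusted p = 0.0681), 0.83 for 24 nt (adjusted p = 0.0681) and 0.91 for 22 nt (adjusted p = 0.0382). Without the 2 farthest events these were 0.97 for 21 nt, -0.32 for 24 nt and 0.70 for 22 nt, again over few events. The relation for 24 nt over events was therefore not seen without those 2. Spearman rho over event means passed in 0 of 5 relations (0.60 to 0.89, exact permutation, adjusted p = 0.0833 to 0.242).

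**Figure D2:**
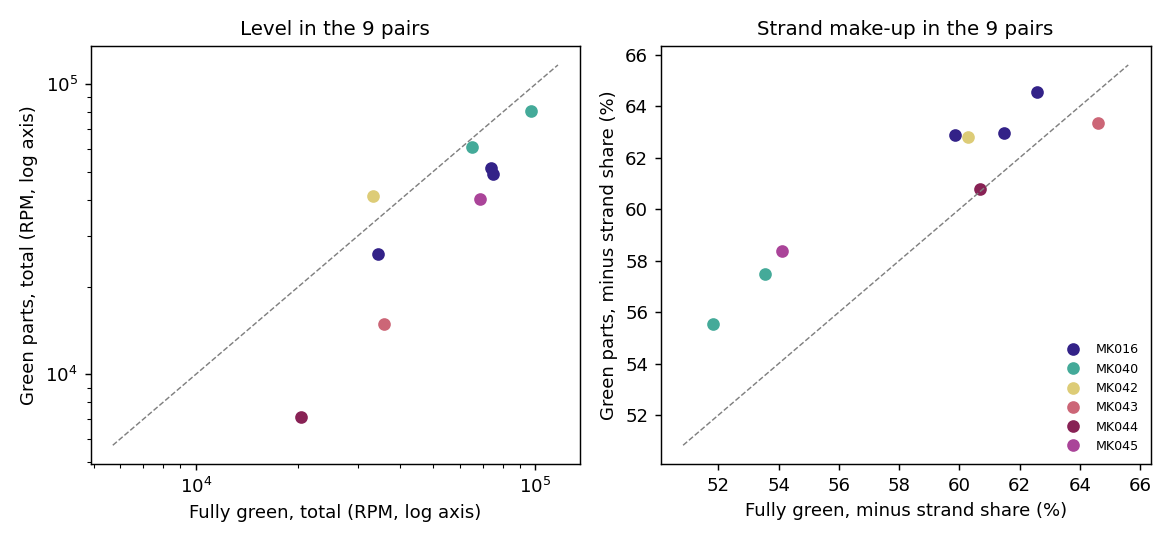
Green parts against fully green values of the 9 pairs, for the total (left, RPM, both axes log) and the minus strand share (right, percent). Points are pairs coloured by event and the dashed line marks equal values. For the total, 8 of 9 points lie below the line, and for the minus strand share 8 of 9 lie above it.

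The other leaf libraries of the same 9 event and number combinations place both kinds of green tissue on a scale of total level. Totals ranged from 1455 to 79188 RPM (median 5247 RPM) in red parts and from 446 to 2989 RPM (median 1239 RPM) in fully red leaves. The 24 nt share did not follow the totals in fully red leaves, which had the lowest median total but the highest median share. Over the 9 combinations its median was 2.22% in fully green leaves, 1.89% in green parts, 1.86% in red parts and 3.40% in fully red leaves. The share ran from 1.09% to 2.34% in red parts and from 2.23% to 12.1% in fully red leaves. In 7 of 9 combinations the order of totals was fully green, green parts, red parts, fully red, from high to low. The exceptions were MK042 number 3, described above, and MK016 number 5, whose library labelled red parts held 79188 RPM, more than the 34304 RPM of its fully green leaf and the 26078 RPM of its green parts.

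The classes that dominate transgene small RNA all stood higher in fully green leaves within pairs, whereas 18 to 20 nt reads did not pass. The 21 nt class, the main DCL4 length, ranged from 15876 to 75254 RPM (median 47258 RPM) in fully green leaves and from 4631 to 62852 RPM (median 30826 RPM) in green parts. The groups overlapped, with 1 fully green library above all green parts. Its level was 1.52-fold higher within pairs (95% interval 1.11 to 2.08, sign-flip permutation test, adjusted p = 0.0219, 8 of 9 pairs) and 1.78-fold higher between unpaired groups (exact permutation test, adjusted p = 0.115). The 22 nt class, the DCL2 length, ranged from 2031 to 10419 RPM (median 6474 RPM) in fully green leaves and from 651 to 8600 RPM (median 4129 RPM) in green parts. It was 1.57-fold higher within pairs (95% interval 1.15 to 2.16, sign-flip permutation test, adjusted p = 0.0205, 8 of 9 pairs) and 1.84-fold higher unpaired (exact permutation test, adjusted p = 0.115).

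The 24 nt class, the DCL3 length, was minor in reads but was the length with the highest fold of the 11. It ranged from 401 to 2398 RPM (median 1471 RPM) in fully green leaves and from 110 to 1785 RPM (median 644 RPM) in green parts. Again the groups overlapped, and 1 fully green library exceeded all green parts. The 24 nt level was higher in fully green leaves in 9 of 9 pairs, by 1.71-fold (95% interval 1.31 to 2.27, sign-flip permutation test, adjusted p = 0.0109). MK042 number 3, whose total ran the other way, was among these 9, with 730 RPM of 24 nt reads in the fully green leaf and 658 RPM in the green parts. Unpaired, the 24 nt fold was 2.12 (95% interval 1.06 to 4.27, exact permutation p = 0.0350, adjusted p = 0.115).

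Both strands were higher in fully green leaves within pairs, but the minus strand call was lost when some single pairs were left out. Plus strand reads ranged from 8011 to 45091 RPM (median 27639 RPM) in fully green leaves and from 2378 to 34391 RPM (median 15354 RPM) in green parts. Minus strand reads ranged from 12359 to 51979 RPM (median 33703 RPM) in fully green leaves and from 3597 to 46465 RPM (median 23418 RPM) in green parts. On either strand the groups overlapped, with 1 fully green library above all green parts. Within pairs the plus strand was 1.57-fold higher (sign-flip permutation test, adjusted p = 0.0205) and the minus strand 1.43-fold higher (adjusted p = 0.0348), each in 8 of 9 pairs. The plus strand call held whichever pair was left out, in 9 of 9 cases. The minus strand call was lost without MK016 number 3, MK016 number 4, MK043 number 1, MK044 number 3 or MK045 number 3 (sign-flip permutation test, adjusted p = 0.0696 in each case, log2 difference 0.39 to 0.52). Over all 9 cases the log2 difference of the minus strand was 0.39 to 0.63. With a pair left out the smallest possible p is larger, so a lost call does not by itself show reliance on that pair. Unpaired, the folds were 1.82 and 1.71 (exact permutation test, adjusted p = 0.115 for each).

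Of the 14 levels tested (the total, 2 strands and 11 lengths), 0 passed in the unpaired exact permutation test, in which 3 had an unadjusted p under 0.05 (23, 24 and 28 nt). Within pairs 11 of the 14 passed, all higher in fully green leaves, and the 3 that did not were 18, 19 and 20 nt. The 23 nt class was 1.68-fold higher in 9 of 9 pairs (sign-flip permutation test, adjusted p = 0.0109). The 25, 26, 27 and 28 nt classes, which are longer than the usual Dicer products, were 1.45 to 1.55-fold higher, in 8 or 9 of 9 pairs (adjusted p = 0.0109 to 0.0182). The 18, 19 and 20 nt classes had paired folds of 1.17, 1.05 and 1.14 (adjusted p = 0.287, 0.785 and 0.492), with 95% intervals that reached from 0.730 to 1.72.

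Over the 22 combinations of length and strand, 0% were called in the unpaired exact permutation test, 0 of 22, with 5 at an unadjusted p under 0.05. edgeR's quasi-likelihood test on the read counts also called 0 of 22, with 1 at an unadjusted p under 0.05. Within pairs 59.1% were called, 13 of 22, all higher in fully green leaves (sign-flip permutation test). All 13 calls were at lengths of 21 to 28 nt. On the plus strand all 8 lengths from 21 to 28 nt passed, with paired folds of 1.51 to 1.78, and each length from 23 to 28 nt was higher in 9 of 9 pairs. On the minus strand 5 of 8 lengths from 21 to 28 nt passed, those of 21 to 25 nt, and the paired folds over the 8 were 1.33 to 1.65. At 26 to 28 nt on the minus strand the folds were 1.33 to 1.37 (sign-flip permutation test, adjusted p = 0.0614 to 0.0752). Of the 6 combinations of 18 to 20 nt, 0 passed, with paired folds of 1.04 to 1.19. edgeR with a pair block called 16 of 22, all higher in fully green leaves: every length from 21 to 28 nt on both strands. At 26 to 28 nt on the minus strand its adjusted p was 0.00729 to 0.0117 (quasi-likelihood test). However, 22 features of 1 transgene give edgeR little to share spread over and no set of unchanged features to scale on. Whether the minus strand levels passed at these lengths therefore depended on the test used, and neither test compared the strands with each other. The minus strand share within a length does so. Within pairs it was lower in fully green leaves at 26 nt (-3.94 percentage points, sign-flip permutation test, adjusted p = 0.0469). At 27 and 28 nt it did not pass (-3.05 and -3.47 percentage points, adjusted p = 0.141 and 0.0938).

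**Figure D3:**
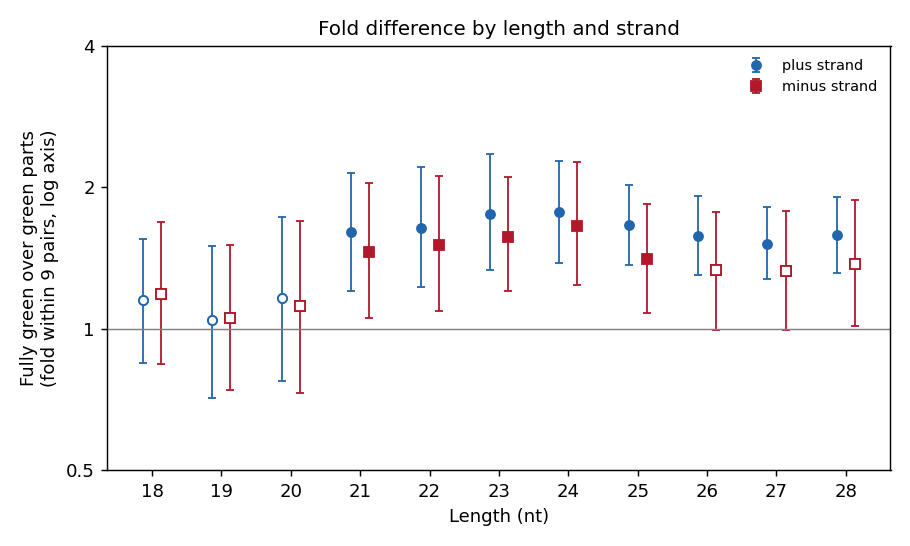
Fold of fully green over green parts within the 9 pairs (log axis) for each length in nt, on the plus strand (blue circles) and the minus strand (red squares). Bars are 95% intervals from the sign-flip permutation test, and filled symbols passed at an adjusted p under 0.05. All 13 filled symbols lie between 21 and 28 nt, above a fold of 1.

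The length make-up was similar in outline: both kinds of tissue were dominated by 21 nt reads, followed by 22 nt. The mean shares of all 18 to 28 nt reads were 78.2% ± 2.31 for 21 nt and 10.8% ± 0.551 for 22 nt in fully green leaves (SD, n = 9), and 77.3% ± 3.42 and 10.3% ± 0.615 in green parts (SD, n = 13). Of 11 length shares, 1 passed unpaired, that of 24 nt, and 2 had an unadjusted p under 0.05 (exact permutation test). Within pairs 6 of 11 passed: 22, 23 and 24 nt had higher shares in fully green leaves, and 18, 19 and 20 nt had lower ones.

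**Figure D4:**
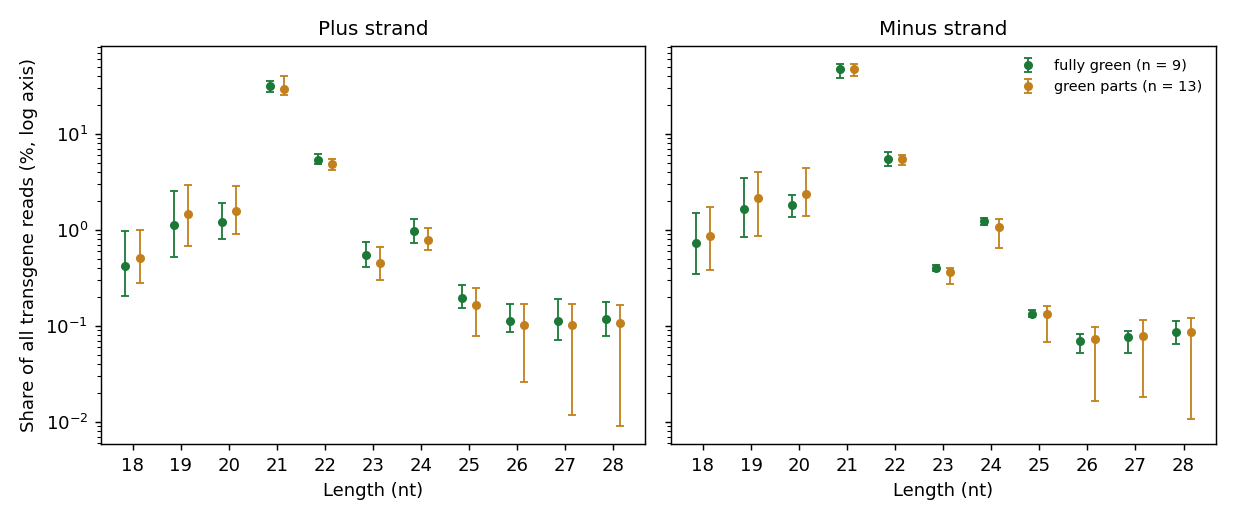
Share of all transgene reads (percent, log axis) at each length in nt on the plus strand (left panel) and minus strand (right panel), in fully green leaves (green, n = 9) and green parts (orange, n = 13). Points are means and bars run from the lowest to the highest library. The profiles of both tissues peak at 21 nt on both strands and overlap at every length.

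Relative to all transgene reads, 24 nt reads made up more in fully green leaves than in green parts. The 24 nt share ranged from 1.97% to 2.51% (median 2.22%) in fully green leaves and from 1.27% to 2.29% (median 1.80%) in green parts. The groups overlapped, but 3 of 9 fully green libraries lay above all green parts: both of MK040 and MK045 number 3. Counting error was small beside this range: the Wilson 95% interval, which covers counting error only, ran from 2.47% to 2.55% in fully green MK045 number 3 and from 1.22% to 1.32% in green parts MK041 number 1. The difference was 0.373 percentage points (95% interval 0.138 to 0.610, exact permutation test, adjusted p = 0.0406 over 11 lengths).

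Within pairs the gain in 24 nt share was 0.289 percentage points (95% interval 0.175 to 0.430), with fully green leaves higher in 9 of 9 pairs (sign-flip permutation test, adjusted p = 0.0215). The gap was widest in MK042 number 3, with 2.20% in the fully green leaf and 1.59% in the green parts, and in MK016 number 5, with 2.22% and 1.62% in the same order. It was narrowest in MK016 number 4, with 1.99% in the fully green leaf and 1.89% in the green parts. The unpaired call was close to the threshold. It held without fully green MK016 number 4, MK043 number 1 or MK044 number 3, and without green parts MK016 number 3, MK040 number 1, MK040 number 2 or MK045 number 3. Without any 1 of the other 15 libraries the adjusted p was 0.0551 to 0.0984 (exact permutation test), with a difference of 0.325 to 0.377 percentage points. The paired call held in 9 of 9 cases when a pair was left out.

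Shares of 22 and 23 nt reads moved in the same direction within pairs. The 22 nt share ranged from 9.96% to 11.4% in fully green leaves (median 10.8%) and from 9.14% to 11.0% in green parts (median 10.6%), with 3 of 9 fully green libraries above all green parts. Within pairs it gained 0.591 percentage points, in 8 of 9 (sign-flip permutation test, adjusted p = 0.0286). The 23 nt share averaged 0.942% ± 0.109 in fully green leaves (SD, n = 9) and 0.809% ± 0.126 in green parts (SD, n = 13), and within pairs it gained 0.107 percentage points in fully green leaves, in 9 of 9 (adjusted p = 0.0215). Unpaired, neither passed (exact permutation test, adjusted p = 0.210 for 22 nt and 0.0972 for 23 nt).

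Reads shorter than 21 nt made up less of the total in fully green leaves. Together, 18 to 20 nt reads were 4.16% to 12.7% of transgene reads in fully green leaves (median 6.36%) and 4.83% to 16.1% in green parts (median 8.24%). The highest values were 12.7% in fully green MK040 number 2, and 16.1% in MK016 number 5, 14.7% in MK040 number 2 and 13.9% in MK044 number 3 among green parts. Within pairs the difference, fully green minus green parts, was -0.333 percentage points for 18 nt, -1.22 for 19 nt and -1.10 for 20 nt (sign-flip permutation test, adjusted p = 0.0430 for each). The 18 and 19 nt shares were higher in the fully green leaf in 1 of 9 pairs each and the 20 nt share in 2 of 9. Unpaired, the 3 shares did not pass (exact permutation test, adjusted p = 0.632, 0.510 and 0.210).

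The count of 6 length shares called within pairs changed when single pairs were left out. It was 7 without MK016 number 4 and 6 without MK043 number 1, but 2 without any other single pair, and the smallest p that 8 pairs allow is larger than that of 9. The 24 nt share was past the threshold in each of these 9 cases.

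The 21 nt share depended on what it was set against. Of all 18 to 28 nt reads it was 72.7% to 80.5% (median 78.9%) in fully green leaves and 71.1% to 82.5% (median 77.7%) in green parts, with complete overlap. The mean gain within pairs was 1.65 percentage points, and 6 of 9 pairs were higher in the fully green leaf (sign-flip permutation test, adjusted p = 0.0982). Set against the 21 to 24 nt reads only, which leaves out the 18 to 20 nt reads that made up a smaller share of fully green reads, the direction reversed. The difference was then -0.659 percentage points within pairs (sign-flip permutation test, adjusted p = 0.00521) and -0.762 unpaired (exact permutation test, adjusted p = 0.0342).

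**Figure D5:**
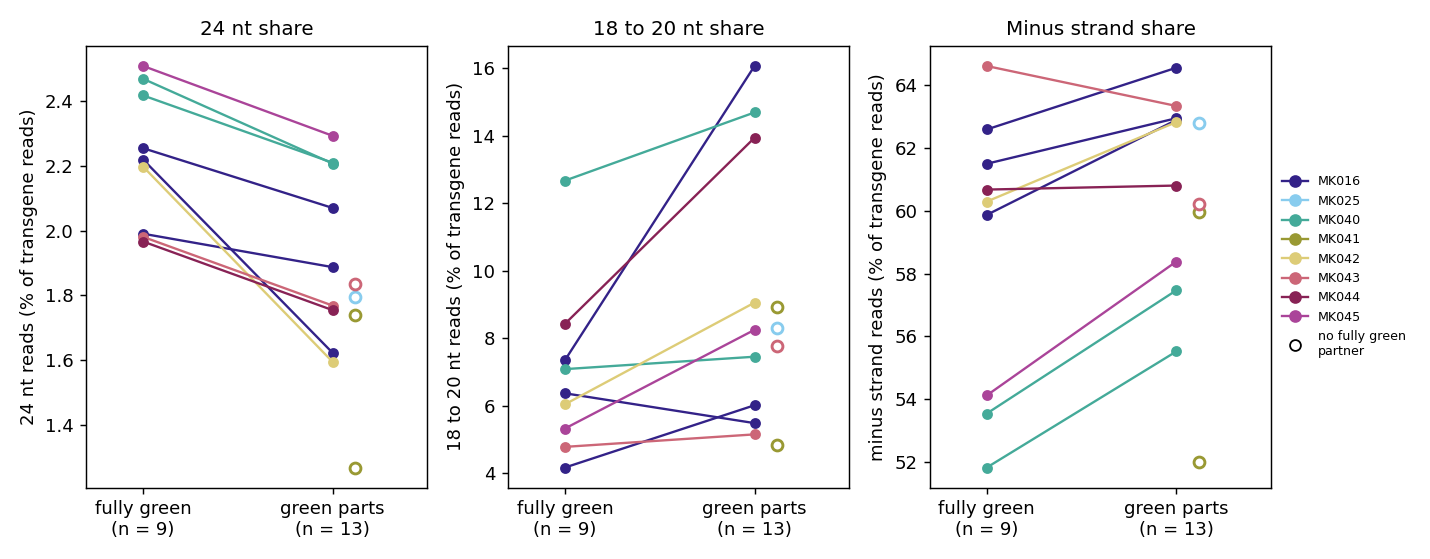
Share of 24 nt reads (left), of 18 to 20 nt reads (middle) and of minus strand reads (right), in percent of transgene reads, for each fully green and each green parts library. Lines join the 9 pairs, colours are events and open circles are green parts with no fully green partner. All 9 lines descend towards green parts for 24 nt, and 8 of 9 ascend for the minus strand.

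Ratios of lengths within a strand do not depend on the mapped reads or on other lengths. On the minus strand, 24 nt reads were 2.31% to 2.94% of the number of 21 nt reads in fully green leaves (median 2.69%) and 1.51% to 2.90% in green parts (median 2.15%). On the plus strand the same ratio was 2.50% to 3.75% in fully green leaves (median 2.98%) and 1.56% to 3.38% in green parts (median 2.66%). The groups overlapped on both strands. The log2 ratio on the minus strand was 0.26 higher in fully green leaves unpaired (exact permutation test, adjusted p = 0.0465 over 6 ratios) and 0.18 higher within pairs, in 8 of 9 (sign-flip permutation test, adjusted p = 0.0176). On the plus strand it was 0.24 higher unpaired (exact permutation test, adjusted p = 0.0766) and 0.15 higher within pairs (adjusted p = 0.0176).

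In all, 1 of 6 ratios passed unpaired and 5 of 6 within pairs, all higher in fully green leaves. The ratio of 22 to 21 nt reads, the DCL2 against the DCL4 length, was among those that passed on the minus strand, by 0.05 on the log2 scale in 8 of 9 pairs (sign-flip permutation test, adjusted p = 0.0176). On the plus strand it did not pass (0.03, adjusted p = 0.238, 95% interval -0.02 to 0.07). The ratio of 24 to 22 nt reads was 0.13 higher on the minus strand (adjusted p = 0.0176) and 0.12 higher on the plus strand (adjusted p = 0.0469) within pairs.

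Minus strand reads were in the majority in every library of both tissues. Their share ranged from 51.8% to 64.6% (median 60.3%) in fully green leaves and from 52.0% to 64.5% (median 60.8%) in green parts, so that the groups covered the same range. The lowest fully green values were 51.8% and 53.5% in MK040 and 54.1% in MK045, and the highest was 64.6% in MK043 number 1. The unpaired difference was -1.50 percentage points (95% interval -5.11 to 2.11, exact permutation test, adjusted p = 0.531). Within pairs the minus strand share was lower in fully green leaves, with a difference of -2.19 percentage points (95% interval -3.60 to -0.708) and 1 of 9 pairs higher (sign-flip permutation test, adjusted p = 0.0352).

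The largest gap in minus strand share was in MK045 number 3, with 54.1% in the fully green leaf and 58.4% in the green parts. The pair higher in the fully green leaf was MK043 number 1, with 64.6% and 63.3% in that order. The paired call held without MK043 number 1 (adjusted p = 0.0134) or MK044 number 3 (adjusted p = 0.0469) in the sign-flip permutation test. Without any 1 of the other 7 pairs the adjusted p was 0.0563 to 0.0703, with a difference of -2.28 to -1.93 percentage points. With all pairs the difference was -2.19. The smallest possible p rises when a pair is left out, so a lost call does not by itself show reliance on that pair.

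Strand balance differed by length in both tissues. Minus strand reads were 60.2% ± 4.75 of 21 nt reads, 50.5% ± 3.59 of 22 nt reads and 41.5% ± 6.01 of 25 nt reads in fully green leaves (SD, n = 9), and 61.7% ± 4.05, 52.6% ± 2.47 and 45.3% ± 5.58 in green parts (SD, n = 13). Of 12 minus strand shares (overall and within each length), 0 passed unpaired and 0 had an unadjusted p under 0.05 (exact permutation test). Within pairs 6 of 12 passed, all lower in fully green leaves: overall and at 21, 22, 23, 25 and 26 nt. Among 25 nt reads, the part on the minus strand was lower in the fully green leaf in 9 of 9 pairs, with a difference of -4.04 percentage points (sign-flip permutation test, adjusted p = 0.0352). Among 24 nt reads the minus strand share had a paired difference of -1.83 percentage points and did not pass (adjusted p = 0.216, 95% interval -4.81 to 1.16). The count of 6 minus strand shares was 8 without MK043 number 1, 4 without MK044 number 3 and 0 without any other single pair. Here too the smallest possible p rises when a pair is left out.

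Since MK016 gave 3 pairs and MK040 gave 2, the pairs were also averaged by event, which left 6 values and a smallest possible exact p of 0.0313. The 23, 24, 25, 27 and 28 nt levels were higher in fully green leaves in 6 of 6 events, as were the shares of 22, 23 and 24 nt reads (exact sign-flip permutation p = 0.0313 each). Shares of 18 and 19 nt reads were lower in 6 of 6 events (exact p = 0.0313 each). The total was higher in 5 of 6 events (exact p = 0.0938) and the minus strand share lower in 5 of 6 (exact p = 0.0938). None of these levels or shares passed after adjustment over their families (24 nt level, exact permutation test, adjusted p = 0.0875, and 24 nt share, adjusted p = 0.0688). With 6 values, even the smallest possible p passes this adjustment only if most features of a family reach it. The adjusted test over events could therefore hardly pass.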

How the data were processed

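Small RNA was extracted by the authors with TRIzol and prepared with the TruSeq Small RNA kit, per the labels' protocols. The deposited tables gave the read count of the transgene per length and strand, unnormalized, and RPM, which the authors made as the count per 1000000 mapped reads. On 484 lines RPM matched this within a relative tolerance of 1e-06. The submitters' processing notes name TAIR10. The aligner, read filters, the handling of repeated matches and the mapped total's reference are not given in the sources used here.

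Members, features and tests were chosen with earlier results of these data known. Sums in RPM received a pseudocount of 1 RPM before log2, and 0.5 counts were added to ratios. Unpaired tests were two-sided exact permutation tests of group means (497420 arrangements). Paired tests flipped signs over 9 pairs (512 arrangements, smallest p 0.00391). Intervals hold the shifts not rejected at 0.05. Benjamini-Hochberg adjustment ran within 14 levels, 22 levels by length and strand, 11 length shares, 12 minus strand shares and 6 ratios, and an adjusted p under 0.05 passed. Given in full were the total, the strands and 21, 22 and 24 nt. Other lengths were named where they passed. Python 3.11.15, numpy 2.4.6, scipy 1.17.1 and edgeR 4.0.16 (R 4.3.3, mapped reads as library size) were used. The permutation tests were tested on simulated data that held no event or pair effects.

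Libraries were paired by event and number. The pairing was kept because length and strand profiles, after group means were removed, correlated above 0.1 in 9 of 9 pairs (0.319 to 0.965, median 0.739). The highest correlation with the green parts of any other pair, of the same or another event, was 0.414 to 0.929. Passing 0.1 therefore does not single out a partner. In 5 of 9 pairs the own partner correlated highest. In 114 comparisons of libraries within a tissue, 0 agreed within sampling noise. A count of 3 reads, taken as the detection floor, was 0.0955 to 0.857 RPM. Alternatives covered pseudocounts of 0.1 and 10 RPM, a minimum of 1 RPM, another read total, ranks, event means, pairs, labels permuted within events, depth, MK016 left out and each library left out.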

Additional observations from a re-analysis of the deposited data

Results flagged for a closer look

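In fully green leaves, 1 library stood apart from the other 8 in 2 shares. MK040 number 2 had the highest 18 nt share, 2.47%, against 1.40% in the next highest, a gap of 0.559 of the group's range. It also had the lowest 21 nt share, 72.7%, against 77.5% in the next lowest, a gap of 0.620 of the range. Both gaps are past the 95% limit of Dixon's test for 9 libraries, which chance passes in about 1 of 20 groups, and 65 features were looked at. Its paired green parts library, also MK040 number 2, had the highest 18 nt share (2.72%) and the lowest 21 nt share (71.1%) of the 13 green parts libraries. Without the fully green library, the difference in 21 nt share, fully green minus green parts, was 1.66 percentage points (exact permutation test, adjusted p = 0.326), against 0.965 with it (adjusted p = 0.646).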

How the results depend on the processing

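Paired values are mean differences within the 9 pairs, here called the replicate block. With it the log2 total was 0.57 higher in fully green leaves (permutation, adjusted p = 0.0219) and the minus strand share changed by -2.19 percentage points (adjusted p = 0.0352). The 24 nt share lost its unpaired call with 1 mean per event (0.358 percentage points), in the 9 pairs only without pairing (0.289), without libraries under 8 M mapped reads (0.289) and without MK016 (0.410), and was 0.325 to 0.410 without single libraries. The 21 nt share reversed as a share of 21 to 24 nt reads, to -0.762 unpaired and -0.659 within pairs.

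Counts of calls moved most. With the block, 11 of 14 levels, 13 of 22 levels by length and strand (16 by edgeR), 6 length shares, 6 minus strand shares and 5 ratios passed. With labels permuted within events, 0 of 14 and 10 of 22 levels, 3 length shares and 5 ratios passed. Of the 12 minus strand shares, 0 passed in that permutation test (lowest adjusted p = 0.193, 3 with an unadjusted p under 0.05). With 21 to 24 nt reads as the total, or with ranks, 2 length shares passed. With event means, the 9 pairs unpaired, low depth left out or MK016 left out, 0 length shares and 0 ratios passed. Without single libraries 0 to 2 length shares and 0 to 4 ratios passed. The cause of these changes was not tested.

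With alternatives chosen after seeing the data, 0 of 14 paired levels passed over event means or without MK016, where 6 values remained in each. Without the pair of low depth, 10 of 14 passed. The unpaired total stayed short of the threshold under every unpaired alternative and every library left out, at a log2 difference of 0.63 to 0.98 without single libraries. The lowest count at any length and strand was 16 reads, and how much counting error adds to the spread at the rare 25 to 28 nt lengths was not tested.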

Other observations

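Whether libraries with more transgene small RNA also differed in make-up was looked at within each tissue, in 4 relations chosen after seeing the data. In the 9 fully green libraries the log2 total and the 24 nt share had a Pearson r of 0.63 (exact permutation p = 0.0750, adjusted p = 0.258) and a Spearman rho of 0.62 (exact permutation p = 0.0857, adjusted p = 0.343), with r = 0.50 without the 2 libraries farthest from the median total. In the 13 green parts libraries r was 0.28 (permutation p = 0.348, adjusted p = 0.393) and rho 0.37 (permutation p = 0.217, adjusted p = 0.415), with r = 0.36 without the 2 farthest. The total and the minus strand share had r = -0.55 (exact permutation p = 0.129, adjusted p = 0.258) and rho = -0.38 (exact permutation p = 0.313, adjusted p = 0.415) in fully green leaves, and r = -0.26 (permutation p = 0.393, adjusted p = 0.393) and rho = -0.25 (permutation p = 0.415, adjusted p = 0.415) in green parts. Leaving out the 2 farthest libraries gave r = -0.60 for fully green leaves, and r = -0.40 for green parts. None of the 4 relations passed after adjustment, and several libraries share an event.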
